A study of Mus musculus with 8 samples.

Results

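The enzymes described here supply serine, one-carbon units, asparagine, proline and cysteine, or split glutathione, and their genes are known targets of the transcription factor ATF4. They are Phgdh, Psat1, Psph, Shmt2, Mthfd2, Asns, Aldh18a1, Pycr1, Cth and Chac1, taken by gene symbol. All 10 were found among 13607 genes that were counted. RNA was measured by polyA RNA sequencing in cultured mouse astrocytes of C57BL/6J background with floxed Yap1 and Taz (Wwtr1) alleles, in 8 libraries that form 4 groups of 2 (replicates A and B). Control astrocytes were untransformed and had no doxycycline. The group called HER2CA day 15 was transduced by lentivirus with a constitutively active HER2 that doxycycline induces, with the doxycycline-dependent activator rtTA and with CreERT2, a Cre recombinase that 4-hydroxytamoxifen (4OH-TAM) activates; it had 15 days of doxycycline and no 4OH-TAM. The 4OH-TAM-labelled libraries came from such cells with doxycycline and 1 µM 4OH-TAM for 15 days, a treatment meant to delete both floxed genes. Gliomaspheres were first-passage spheres, kept floating in doxycycline medium and harvested at 3 weeks. The culture medium held EGF and bFGF at 20 ng/ml each with 1% GLN and 1% N-2 supplement. DMSO is listed as a condition of HER2CA day 15 and of gliomaspheres, while the treatment protocol describes cells without 4OH-TAM as untreated. The sources used here do not state if control astrocytes also carried the constructs. In what follows, a change with HER2CA is one in HER2CA day 15 against controls. In that comparison HER2CA cannot be told apart from doxycycline or from any difference in constructs or culture time.

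As background, cells make serine from the glycolytic intermediate 3-phosphoglycerate through PHGDH, PSAT1 and PSPH. In mitochondria SHMT2 passes a carbon from serine to folate and MTHFD2 oxidises that carbon on its way to formate, which feeds purine and thymidylate synthesis. ATF4 protein is made when general translation is restrained by amino acid shortage or other stress, and it switches on genes that restore amino acids. In the brain, astrocytes are a main site of serine synthesis and pass serine on to neurons.

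Depth was lowest in gliomaspheres B, with 15517708 counts, and highest in HER2CA day 15 B, with 28231426. In gliomaspheres B the ribosomal RNA precursor Rn45s took 36.1% of the counts, against 0.984% to 2.92% in the other 7 libraries, so results on gliomaspheres are also given without that library. Wherever a library is left out, its group is 1 library that is assumed to vary like the other groups, so such a p-value has no replicate check of its own. Levels are CPM, counts relative to library size, with library sizes scaled by TMM factors, which were 0.637 in gliomaspheres B and 1.03 to 1.12 in the others. Yap1 stood at 107 and 103 CPM under the 4OH-TAM label, close to the 101 and 103 CPM of HER2CA day 15, and did not pass the test (log2 fold change 0.04, adjusted p = 0.569). Wwtr1 was lower there (123 and 122 CPM against 194 and 210.3 CPM; log2 fold change −0.73, adjusted p = 1.25e-07), though not past the test with no scaling factors (−0.61, adjusted p = 0.0738). The sources used here do not state which exons are floxed, so counts over a whole gene cannot tell whether it was deleted. Every direction given below for the 4OH-TAM-labelled libraries therefore rests on that label. The sources do not say whether replicates came from separate cultures, so p-values measure the spread between these libraries, and that spread may be technical. In such bulk samples, a change in the share of cells that make a transcript and a change in RNA per cell cannot be told apart.

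Promoter windows show where the ATF4-related letters lie in these genes. They were read from RefSeq (build GRCm38.p6), from 250 bases before to 50 bases after a gene's start, and 9 of the 10 genes had one. The letters searched on both strands were TGATGNAA, the C/EBP-ATF response element that ATF4 binds together with C/EBP proteins, and they occurred in the windows of Asns, Pycr1 and Chac1. Of all 32851 windows 3.97% held them, and over the 13279 windows of measured symbols 2.24% did. The 3 windows follow 5′ to 3′ along each gene, with the matching letters in capitals. They are shown because these genes sit at different places in the results: Asns fell most under the 4OH-TAM label, Chac1 had the largest rise with HER2CA and Pycr1 was lower in gliomaspheres than in controls.
Asns (chr6:7693160-7693459, minus strand): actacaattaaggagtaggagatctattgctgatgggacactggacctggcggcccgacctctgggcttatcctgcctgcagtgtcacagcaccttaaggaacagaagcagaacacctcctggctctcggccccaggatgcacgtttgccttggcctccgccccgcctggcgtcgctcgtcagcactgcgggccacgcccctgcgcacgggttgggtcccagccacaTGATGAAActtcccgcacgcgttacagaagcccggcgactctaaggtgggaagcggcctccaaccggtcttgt
Pycr1 (chr11:120643699-120643998, minus strand): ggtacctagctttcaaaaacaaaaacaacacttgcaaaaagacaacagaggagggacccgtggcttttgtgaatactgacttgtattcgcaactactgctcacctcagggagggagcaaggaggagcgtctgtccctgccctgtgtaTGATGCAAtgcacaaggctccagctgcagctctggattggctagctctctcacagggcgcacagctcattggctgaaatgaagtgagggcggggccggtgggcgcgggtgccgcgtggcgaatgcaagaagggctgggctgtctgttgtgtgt
Chac1 (chr2:119350992-119351291, plus strand): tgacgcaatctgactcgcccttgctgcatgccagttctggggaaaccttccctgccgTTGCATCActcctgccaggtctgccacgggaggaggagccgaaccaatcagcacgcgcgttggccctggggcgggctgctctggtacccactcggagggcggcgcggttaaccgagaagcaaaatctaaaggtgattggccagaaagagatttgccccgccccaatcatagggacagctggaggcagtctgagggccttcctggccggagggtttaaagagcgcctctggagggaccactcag
In Asns the letters read TGATGAAA and begin 23 bases before the RefSeq start. They lie at bases 7693225 to 7693232, which is inside the gene by its GENCODE M21 position (to 7693254, minus strand). In Pycr1 the letters read TGATGCAA and begin 103 bases before the RefSeq start. In Chac1 the same TGATGCAA lies on the opposite strand, so the window shows its reverse complement TTGCATCA, 193 bases before the start. With a shorter window of 150 bases before the start, 2 of these genes held the letters, against 2.75% of all windows and 1.42% of those of measured symbols. The cyclic AMP response element TGACGTCA was in the window of 0 members, in 1.79% of all windows and in 3.02% of those of measured symbols. The E-box CACGTG was in that of Aldh18a1, in 7.15% of all windows and in 9.6% of those of measured symbols. The 3 motifs share no bases in these windows. A match describes letters only, and a window without one says nothing about binding elsewhere.

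With HER2CA, all 10 genes rose. Their summed level was 374 and 421 CPM in controls and 1969.6 and 1989 CPM in HER2CA day 15. It was 1274 and 1543 CPM in the 4OH-TAM-labelled libraries and 599 and 623 CPM in gliomaspheres. The 4 groups did not overlap in this sum, and controls were lowest. In each of the 10 genes the 4OH-TAM-labelled library B was above A.

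**Figure D1:**
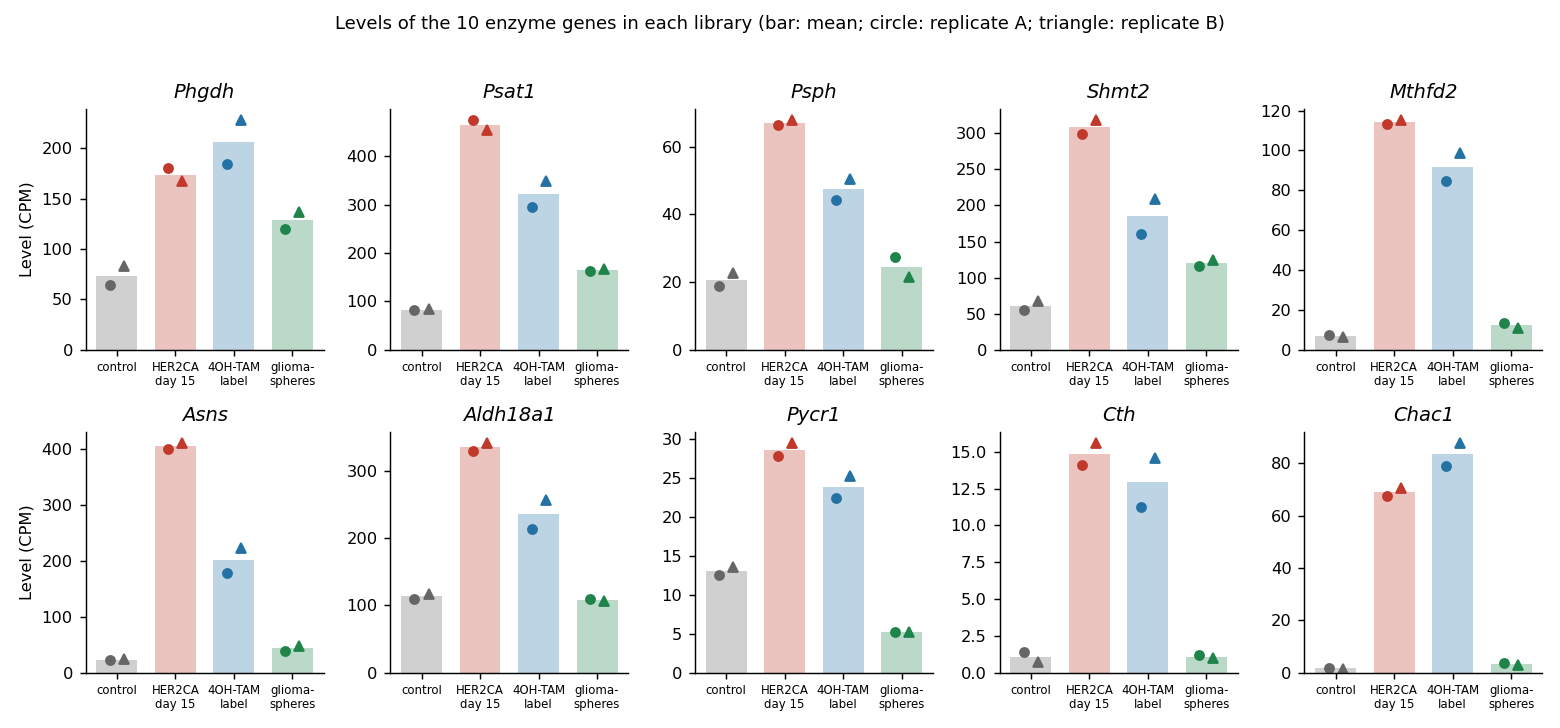
Level in CPM (vertical axis, from 0, a separate scale for each gene) of the 10 genes in the 4 groups; bars are group means, circles replicate A and triangles replicate B. The 2 day 15 groups stand above controls and gliomaspheres in each gene, and Phgdh and Chac1 are highest under the 4OH-TAM label.

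The counts of genes past the test (edgeR quasi-likelihood, Benjamini-Hochberg adjusted p under 0.05) differed between the comparisons. In HER2CA day 15 against controls, 10 of 10 members were higher, beside 37.3% of all genes higher and 38.4% lower. In the 4OH-TAM-labelled libraries against HER2CA day 15, 7 members were lower and 1 was higher, beside 39.7% of all genes lower and 40.8% higher. In gliomaspheres against controls, 6 members were higher and 1 was lower, beside 32.5% of all genes higher and 32% lower. The median log2 fold change of the 10 genes was 2.41, −0.41 and 0.82 in these comparisons, and that of all genes was −0.02, 0.01 and −0.01. With no scaling factors, a setting that leaves the Rn45s share of gliomaspheres B uncorrected, the 7 lower became 1 (Asns) and the 6 higher became 0, and with Rn45s and Lars2 also removed they were 5 and 6. The remaining comparisons use the same libraries again. The 4OH-TAM-labelled libraries had 10 members above controls, where 31% of all genes were higher and 28.2% lower. Gliomaspheres had 10 members below HER2CA day 15, where 40.4% of all genes were lower and 38.4% higher. They also had 10 below the 4OH-TAM-labelled libraries, where 29.7% of all genes were lower and 31.3% higher. The members' medians there were 1.78, −2.05 and −1.66, and those of all genes were 0.00, −0.03 and 0.02.

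**Figure D2:**
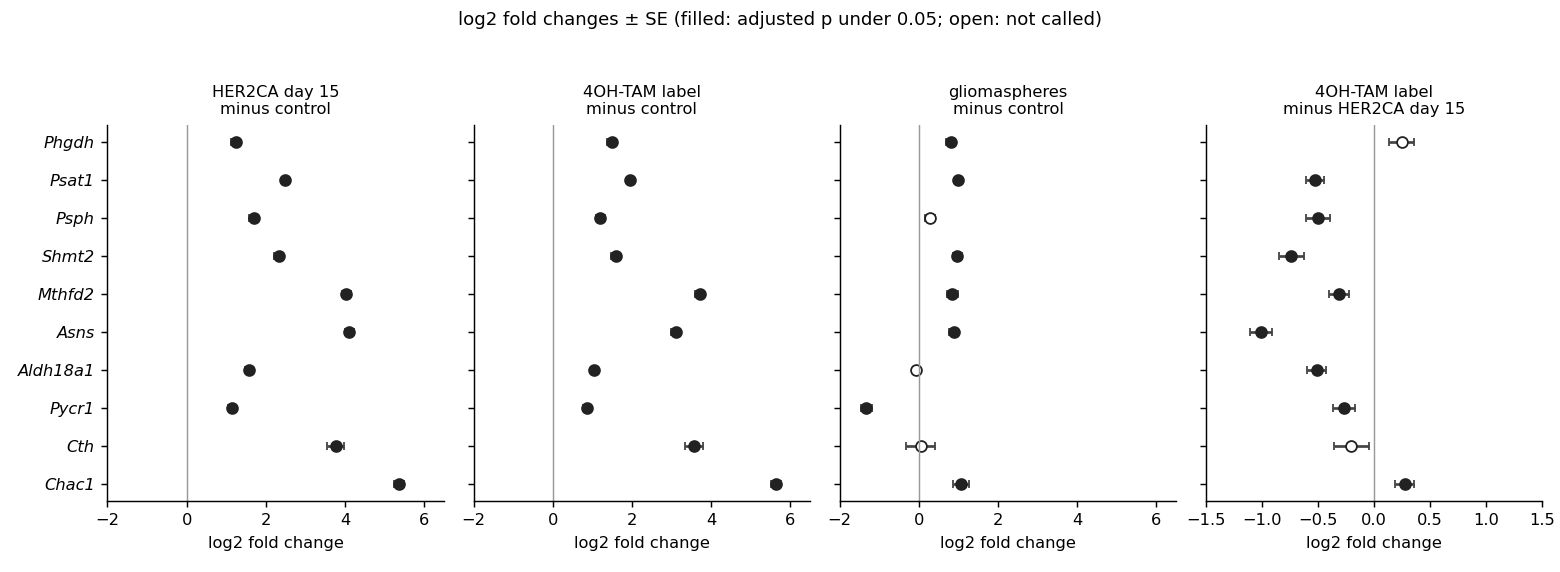
Log2 fold changes of the 10 genes (horizontal axis) with standard errors in 4 comparisons; filled points passed the test (adjusted p under 0.05) and open points did not. The rises with HER2CA run from 1.14 in Pycr1 to 5.37 in Chac1, while the changes under the 4OH-TAM label against HER2CA day 15, on a narrower axis, run from −1.01 in Asns to 0.27 in Chac1.

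The 3 genes of serine synthesis rose with HER2CA to different degrees, and parted under the 4OH-TAM label. Phgdh encodes the first enzyme of the pathway (chromosome 3, 98313170 to 98339990, minus strand, GENCODE M21 on GRCm38, as for the positions below). Phgdh stood at 63.9 and 83.0 CPM in controls, 180.5 and 167 CPM in HER2CA day 15, 184 and 228 CPM under the 4OH-TAM label and 120.3 and 137 CPM in gliomaspheres. The groups did not overlap, and the highest level was in the 4OH-TAM-labelled libraries. The rise with HER2CA was 2.37-fold (log2 fold change 1.24, SE 0.118, adjusted p = 1.56e-07). The further difference of 0.24 (SE 0.114) under the 4OH-TAM label did not pass (adjusted p = 0.0618). It did in 12 of 18 alternatives, some of which only leave out 1 library. The lowest value among the alternatives was 0.08. Library A under the label (184 CPM) was close to HER2CA day 15 A (180.5 CPM), so the difference rests largely on library B (228 CPM). In gliomaspheres Phgdh was 0.80 above controls (SE 0.120) and 0.44 below HER2CA day 15 (SE 0.117) on the log2 scale, and both differences passed.

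Psat1 encodes the aminotransferase that adds the amino group (chromosome 19, 15904678 to 15947337, minus strand). It was at 81.6 and 83.7 CPM in controls, 474 and 455 CPM in HER2CA day 15, 296 and 349 CPM under the 4OH-TAM label and 163 and 166 CPM in gliomaspheres. The groups were separate and the replicates close, except in the 4OH-TAM-labelled libraries. Psat1 rose 5.62-fold with HER2CA (log2 fold change 2.49, SE 0.0851), was lower under the 4OH-TAM label (−0.53, SE 0.0798, adjusted p = 2.09e-05) and was 0.99 above controls in gliomaspheres (SE 0.0835). Psph encodes the phosphatase of the last step (chromosome 5, 129765558 to 129787449, minus strand). Its levels were 18.9 and 22.6 CPM in controls, 66.3 and 67.8 CPM in HER2CA day 15, 44.4 and 50.5 CPM under the 4OH-TAM label and 27.5 and 21.5 CPM in gliomaspheres. Gliomaspheres and controls overlapped, and the day 15 groups lay above both. Psph rose 3.24-fold with HER2CA (log2 fold change 1.70, SE 0.111) and was 0.50 lower under the 4OH-TAM label (log2 fold change −0.50, SE 0.104, adjusted p = 0.000412). Gliomaspheres did not pass against controls (0.28, SE 0.121, adjusted p = 0.0584), and the 1 library left without gliomaspheres B was 0.41 above controls (adjusted p = 0.00509, with the spread taken from the other groups). Psph shares 452 exonic bases, 10.44% of its own, with Cct6a on the opposite strand, and the sources used here do not state the strand setting of the counting.

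Shmt2 and Mthfd2, the mitochondrial one-carbon enzymes among the members, both rose with HER2CA. Shmt2 (chromosome 10, 127517123 to 127522444, minus strand) stood at 55.1 and 67.6 CPM in controls, 299 and 318 CPM in HER2CA day 15, 160.5 and 209 CPM under the 4OH-TAM label and 116 and 125 CPM in gliomaspheres. All 4 groups were separate, and HER2CA day 15 was highest. The rise with HER2CA was 5.03-fold (log2 fold change 2.33, SE 0.118), and the fall under the 4OH-TAM label, −0.74 (SE 0.111, adjusted p = 1.93e-05), was exceeded only by that of Asns among the 10 genes. In gliomaspheres Shmt2 was 0.97 above controls (SE 0.118). Shmt2 shares 32 exonic bases with Ndufa4l2 on the opposite strand.

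Mthfd2 (chromosome 6, 83305691 to 83325908, minus strand) was at 7.56 and 6.38 CPM in controls, 113 and 115 CPM in HER2CA day 15, 84.6 and 99.0 CPM under the 4OH-TAM label and 13.5 and 10.9 CPM in gliomaspheres. The day 15 groups were far above the others, and no groups overlapped. It rose 16.3-fold with HER2CA (log2 fold change 4.03, SE 0.116, adjusted p = 8.37e-13). In gliomaspheres it was 9.10-fold below HER2CA day 15 (log2 fold change −3.19, SE 0.114) and 0.84 above controls (SE 0.139). The difference under the 4OH-TAM label, −0.31 (SE 0.0913, adjusted p = 0.00526), was lost without the 4OH-TAM-labelled library A (−0.21, adjusted p = 0.107) and with upper-quartile factors (−0.11, adjusted p = 0.284).

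Shmt1, Mthfd1, Mthfd2l and Mthfd1l, cytosolic or mitochondrial enzymes of the same steps or the next one, had log2 fold changes from −0.05 to 1.35 with HER2CA. Cytosolic Shmt1 was at 13.1 and 13.3 CPM in controls, 16.8 and 17.4 CPM in HER2CA day 15, 7.08 and 8.95 CPM under the 4OH-TAM label and 16.3 and 19.9 CPM in gliomaspheres. It was thus lowest under the 4OH-TAM label, below controls, where Shmt2 was well above them. Its rise with HER2CA was 0.37 on the log2 scale (SE 0.127, adjusted p = 0.0150; 0.22 and 0.132 with upper-quartile factors) and its fall under the 4OH-TAM label −1.09 (SE 0.133). Mthfd1, the cytosolic multifunctional enzyme, was between 83.7 and 95.2 CPM in the 6 libraries outside gliomaspheres and did not pass in HER2CA day 15 against controls (−0.05, SE 0.0748, adjusted p = 0.559). Mthfd2l, a second mitochondrial dehydrogenase, did not pass there either (0.13, SE 0.144, adjusted p = 0.436). Mthfd1l, which releases formate in mitochondria, rose from 18.2 and 18.0 CPM to 45.0 and 46.9 CPM with HER2CA (log2 fold change 1.35, SE 0.0914) and was at 40.4 and 45.8 CPM in gliomaspheres.

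The pair of formyl-folate dehydrogenases moved in opposite directions with HER2CA and between the day 15 groups, while both were above controls under the 4OH-TAM label and in gliomaspheres. Aldh1l2, the mitochondrial form, was at 38.9 and 44.5 CPM in controls, 309.9 and 304 CPM in HER2CA day 15, 90.3 and 134 CPM under the 4OH-TAM label and 72.8 and 66.9 CPM in gliomaspheres. Aldh1l1, the cytosolic form and an astrocyte marker, was at 348 and 404 CPM in controls, 31.9 and 44.0 CPM in HER2CA day 15, 561 and 566 CPM under the 4OH-TAM label and 647 and 728 CPM in gliomaspheres. With HER2CA Aldh1l2 rose (log2 fold change 2.88, SE 0.139) and Aldh1l1 fell (−3.30, SE 0.129), and under the 4OH-TAM label both went the other way (−1.45, SE 0.130, and 3.89, SE 0.132). Only in HER2CA day 15 was Aldh1l2 above Aldh1l1 in CPM, a scale that does not correct for length.

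**Figure D3:**
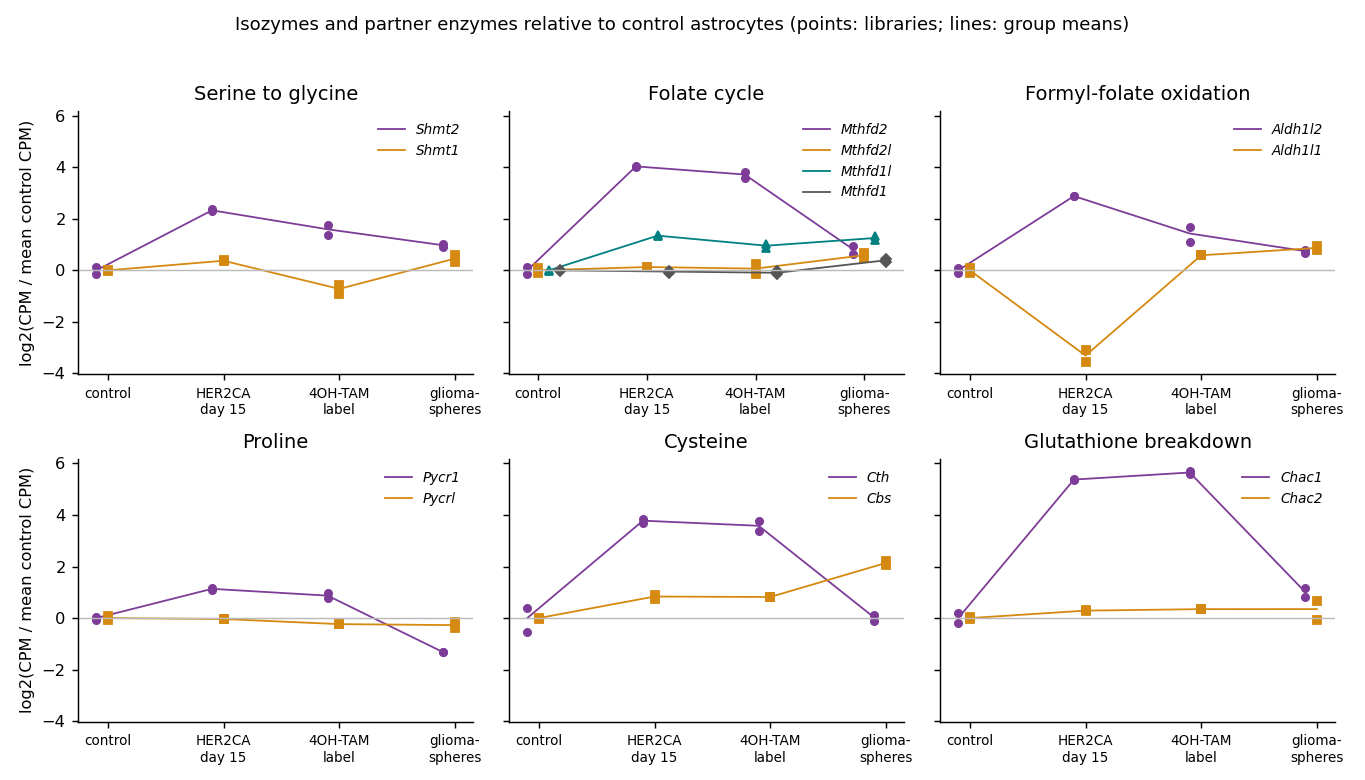
Level relative to the mean of control astrocytes, as log2(CPM / mean control CPM) (vertical axis), in the 4 groups for members and their isozymes or partner enzymes; points are libraries and lines join group means. Mthfd2, Cth and Chac1 rise by more than 3.5 in HER2CA day 15, while Mthfd1, Mthfd2l, Pycrl and Chac2 did not pass the test there.

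Asns, which makes asparagine from aspartate and glutamine and carries the TGATGAAA letters close to its start, had the largest fall under the 4OH-TAM label. Its gene lies on chromosome 6, 7675169 to 7693254, minus strand. Asns was at 22.3 and 24.4 CPM in controls, 399 and 409.8 CPM in HER2CA day 15, 179 and 223 CPM under the 4OH-TAM label and 39.4 and 47.2 CPM in gliomaspheres. The groups were far apart and did not overlap. The rise with HER2CA was 17.3-fold (log2 fold change 4.11, SE 0.115, adjusted p = 7.25e-13). Under the 4OH-TAM label Asns was 2.01-fold lower than in HER2CA day 15 (−1.01, SE 0.0980, adjusted p = 1.70e-07) and still 8.60-fold above controls (3.10, SE 0.111). In gliomaspheres it was 9.44-fold below HER2CA day 15 and 1.83-fold above controls (0.87, SE 0.116). Among other genes that use the same amino acids, Got1, the cytosolic aspartate aminotransferase, rose with HER2CA (log2 fold change 1.58, SE 0.133) and fell under the 4OH-TAM label (−0.94, SE 0.129). Gpt2, the mitochondrial alanine aminotransferase, rose with HER2CA (0.99, SE 0.0876) and was highest in gliomaspheres, at 314 and 281 CPM against 60.5 and 68.9 CPM in controls (2.20, SE 0.0894).

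The proline pathway genes rose with HER2CA and were the only members whose mean in gliomaspheres was below that of controls. Aldh18a1 encodes the enzyme that starts proline synthesis from glutamate (chromosome 19, 40550257 to 40588463, minus strand). It stood at 109 and 117 CPM in controls, 329 and 341 CPM in HER2CA day 15, 214 and 257 CPM under the 4OH-TAM label and 110.0 and 107 CPM in gliomaspheres. Gliomaspheres and controls overlapped (log2 fold change −0.06, SE 0.0870, adjusted p = 0.545), and the day 15 groups lay above both. The rise with HER2CA was 2.96-fold (1.57, SE 0.0858), and the difference under the 4OH-TAM label was −0.51 (SE 0.0834, adjusted p = 4.38e-05).

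Pycr1, the mitochondrial reductase of the last step (chromosome 11, 120635712 to 120643769, minus strand), was at 12.5 and 13.5 CPM in controls and 27.7 and 29.4 CPM in HER2CA day 15. It was at 22.3 and 25.2 CPM under the 4OH-TAM label and at 5.20 and 5.16 CPM in gliomaspheres. No groups overlapped, and gliomaspheres were below controls, the reverse of most other members. It rose 2.20-fold with HER2CA (log2 fold change 1.14, SE 0.102) and fell 2.51-fold in gliomaspheres against controls (−1.33, SE 0.133, adjusted p = 5.51e-07). The difference of −0.27 under the 4OH-TAM label (SE 0.0968, adjusted p = 0.0201) was lost without HER2CA day 15 B (−0.22, adjusted p = 0.130), without 4OH-TAM A (−0.18, adjusted p = 0.217), with upper-quartile factors (−0.06, adjusted p = 0.585), with a filter of 5 CPM in at least 2 libraries (−0.20, adjusted p = 0.0794) and with DESeq2 (−0.25, adjusted p = 0.0871). Pycrl, the cytosolic reductase, did not pass with HER2CA (−0.04, adjusted p = 0.749). Prodh, the first enzyme of proline breakdown, was at 3.26 and 2.06 CPM in controls and 5.04 and 5.59 CPM in HER2CA day 15 (0.99, SE 0.200). Glul, the glutamine synthetase of astrocytes, fell slightly with HER2CA (−0.25, SE 0.0842) and rose under the 4OH-TAM label, from 194 and 200.3 CPM to 867 and 929 CPM (2.19, SE 0.0870).

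Cth and Chac1 had the lowest levels of the 10 genes in controls, and both rose more than 10-fold with HER2CA. Cth encodes cystathionine gamma-lyase, which makes cysteine (chromosome 3, 157894248 to 157925077, minus strand). Cth had 37 and 18 counts in controls, 308 and 452 in HER2CA day 15, 294 and 382 under the 4OH-TAM label and 28 and 10 in gliomaspheres. In CPM these were 1.42 and 0.741, 14.1 and 15.6, 11.3 and 14.6, and 1.17 and 1.01. The day 15 groups overlapped each other, as did controls and gliomaspheres, with a wide gap between. The rise with HER2CA was 13.6-fold (log2 fold change 3.76, SE 0.223, adjusted p = 7.53e-10). The difference between the day 15 groups did not pass (−0.20, SE 0.157, adjusted p = 0.244), nor did gliomaspheres against controls (0.04, SE 0.364, adjusted p = 0.929), where the low counts limit the precision. Cbs, the enzyme before it, rose with HER2CA (0.84, SE 0.102) and was highest in gliomaspheres (45.8 and 50.1 CPM against 10.7 and 11.0 CPM in controls; 2.13, SE 0.100), where Cth did not pass the test.

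Chac1, an enzyme that splits glutathione and carries the TGATGCAA letters on its opposite strand, had the largest rise of the 10 genes with HER2CA and the largest fall from HER2CA day 15 to gliomaspheres. Its gene lies on chromosome 2, 119351229 to 119354381, plus strand. Chac1 had 49 and 35 counts in controls, 1474 and 2042 in HER2CA day 15, 2066 and 2293 under the 4OH-TAM label and 89 and 29 in gliomaspheres. In CPM these were 1.88 and 1.44, 67.6 and 70.4, 79.1 and 87.7, and 3.73 and 2.93. No groups overlapped, and the 4OH-TAM-labelled libraries were highest. Chac1 rose 41.2-fold with HER2CA (log2 fold change 5.37, SE 0.132, adjusted p = 2.09e-13) and was 19.8-fold lower in gliomaspheres than in HER2CA day 15 (−4.31, SE 0.128). Gliomaspheres were 2.08-fold above controls (1.06, SE 0.206, adjusted p = 0.000379). Chac1 was the 1 member called higher under the 4OH-TAM label (0.27, SE 0.0845, adjusted p = 0.00800), a call lost without HER2CA day 15 A (0.24, adjusted p = 0.0566) or without 4OH-TAM B (0.20, adjusted p = 0.122). Chac2, its constitutive relative, was at 6.27 to 10.4 CPM in all 8 libraries and did not pass with HER2CA, between the day 15 groups or in gliomaspheres against controls. Gclc, the catalytic subunit for glutathione synthesis, rose with HER2CA (1.44, SE 0.0896) and fell under the 4OH-TAM label (−1.43, SE 0.0895).

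The order of the groups fell into few patterns. Psat1, Psph, Shmt2, Mthfd2, Asns and Cth were highest in HER2CA day 15, then under the 4OH-TAM label, in gliomaspheres and in controls. Of the neighbours in that order, gliomaspheres and controls did not pass for Psph and Cth, nor did the day 15 groups for Cth. Aldh18a1 and Pycr1 kept the first part of that order but had gliomaspheres last, and for Aldh18a1 the last neighbours did not pass. Phgdh and Chac1 were highest under the 4OH-TAM label, and for Phgdh the first neighbours did not pass. Without gliomaspheres B the members called in gliomaspheres against controls were 7 higher and 1 lower, the added gene being Psph; the spread then came from the other groups. The log2 fold change of Phgdh was then 0.71, that of Asns 0.75 and that of Chac1 1.16, with Pycr1 at −1.32. Against HER2CA day 15 all 10 were still lower, from −0.49 in Phgdh to −4.17 in Chac1, and so they were against the 4OH-TAM-labelled libraries, from −0.70 in Shmt2 to −4.50 in Chac1.

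Levels of different genes were compared per kilobase of annotated exon. That length joins all annotated exons of a gene and can exceed that of the transcripts present, so close ranks may depend on it. In controls Phgdh and Aldh18a1 were highest, at means of 29.6 and 27.8 CPM per kilobase, and Cth was lowest at 0.387. The libraries of Phgdh (25.7 and 33.4) and Aldh18a1 (26.8 and 28.8) overlapped there. In HER2CA day 15 Asns led at 148 CPM per kilobase, followed by Psat1 at 109 and Shmt2 at 99.1, and Phgdh came lower at 70.0. Under the 4OH-TAM label Phgdh led again, at 74.0 and 91.7 in its libraries, which overlapped those of Psat1 (69.5 and 81.9) and Asns (65.3 and 81.6). In gliomaspheres Phgdh was at 51.7, Shmt2 at 38.7 and Psat1 at 38.6. Chac1 moved from 1.01 CPM per kilobase in controls to 42.1 in HER2CA day 15, and Cth stayed lowest in all 4 groups.

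**Figure D4:**
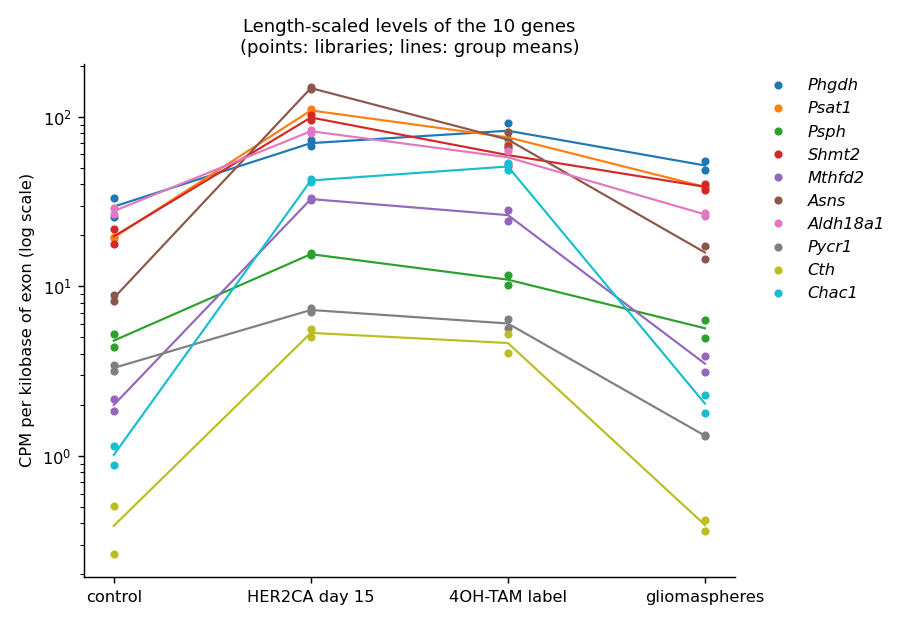
Level per length, as CPM per kilobase of exon on a log axis, of the 10 genes in the 4 groups; points are libraries and lines join group means. Asns is highest in HER2CA day 15 at 148, Phgdh has the highest mean in the other groups, and Cth is lowest throughout.

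The other genes of these pathways did not move as one. Of 19 folate-cycle genes outside the 10, 12 rose and 2 fell with HER2CA (median log2 fold change 0.57), and 2 were higher and 14 lower under the 4OH-TAM label (−0.50). Some genes are counted in more than 1 list. Shmt1 is in this list and in that of serine and glycine, and Mtr and Mtrr are in this list and in that of methionine. Cbs is in the lists of serine and glycine and of methionine. The folate list includes Aldh1l1 and Aldh1l2 above and Tyms, the thymidylate synthase gene, which rose with HER2CA (1.64, SE 0.186). Of 8 other serine and glycine genes 4 rose and 2 fell with HER2CA (0.14), and 5 were higher and 1 lower under the 4OH-TAM label (0.24). Among them Amt, of the glycine cleavage system, fell with HER2CA (−0.50, SE 0.0717). In the folate list 14 of 19 lower (73.7%) stands beside 39.7% of all genes, and 12 of 19 higher (63.2%) beside 37.3%. With no scaling factors the 14 lower became 6 and the 12 higher became 7, and leaving out 1 library gave 12 to 14 and 10 to 13. Of the serine and glycine genes the 4 that rose with HER2CA became 1 with no scaling factors, with upper-quartile factors or without control A, and the 2 that fell became 0 with no scaling factors and 1 without control B or without HER2CA day 15 B. The 5 that were higher under the 4OH-TAM label became 0 with no scaling factors, 2 without HER2CA day 15 A and 3 without 4OH-TAM A.

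The remaining lists held rises and falls in both comparisons. Their counts are to be read beside 37.3% of all genes higher and 38.4% lower with HER2CA, and 40.8% higher and 39.7% lower under the 4OH-TAM label. With HER2CA the share of a list that was higher ran from 27.3% to 50%, and the share lower from 9.09% to 45.5%. Under the 4OH-TAM label these shares ran from 27.3% to 50% and from 27.3% to 45.5%. Of 11 other proline, ornithine and glutamate genes, 4 were higher and 5 lower with HER2CA (−0.21), and again 4 and 5 under the 4OH-TAM label (−0.53). Odc1, the first enzyme of polyamine synthesis, rose with HER2CA (1.00, SE 0.0694) and fell under the 4OH-TAM label (−0.90, SE 0.0692). Of 10 other asparagine, aspartate, alanine and arginine genes, 5 were higher and 4 lower in each comparison (medians 0.11 and 0.28). Without Aspg, which had 3 counts in controls and 0 in HER2CA day 15, the first median was 0.54. Asrgl1, an asparaginase, went opposite to Asns: it fell with HER2CA, from 257 and 289 CPM to 97.1 and 104 CPM (−1.44, SE 0.0780), and was at 264 and 277 CPM under the 4OH-TAM label. Aspg, another asparaginase, had 31 and 42 counts there, at least 23.7-fold higher than in HER2CA day 15, against a floor of 3 counts over the group.

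Of 16 other methionine-cycle and transsulfuration genes, 6 were higher and 7 lower with HER2CA (−0.17), and 8 and 6 under the 4OH-TAM label (0.15). Cdo1, which oxidises cysteine, fell with HER2CA (−1.67, SE 0.125) while Cth rose. Of 11 other glutathione genes 3 were higher and 1 lower with HER2CA (0.17), and 3 and 3 under the 4OH-TAM label (0.05). Of 11 branched-chain amino acid genes 4 were higher and 3 lower with HER2CA (−0.05), and 5 and 3 under the 4OH-TAM label (0.05). The exception in size was Bcat1, the cytosolic branched-chain aminotransferase, at 0.538 and 0.412 CPM in controls, 22.7 and 22.3 CPM in HER2CA day 15, 14.9 and 19.6 CPM under the 4OH-TAM label and 3.77 and 4.65 CPM in gliomaspheres. Its rise with HER2CA was 46.6-fold (log2 fold change 5.54, SE 0.222), close to that of Chac1. In the order proline, asparagine, methionine, glutathione and branched-chain, the numbers higher and lower with no scaling factors were 2 and 2, 4 and 3, 6 and 3, 1 and 1, and 4 and 1 with HER2CA. They were 3 and 2, 3 and 1, 3 and 3, 2 and 1, and 4 and 1 under the 4OH-TAM label. Without HER2CA day 15 A the 5 higher of the asparagine list under that label became 3, and without it or without 4OH-TAM A the 3 lower of the branched-chain list became 1. The 1 lower of the glutathione list with HER2CA became 2 without gliomaspheres A or without gliomaspheres B, and 3 with upper-quartile factors, which also gave 5 in place of 3 higher under the 4OH-TAM label.

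In gliomaspheres against controls the lists split as follows, with higher before lower, beside 32.5% of all genes higher and 32% lower. They were 9 and 6 of 19 for folate (median −0.12), 5 and 1 of 8 for serine and glycine (0.30) and 3 and 5 of 11 for proline, ornithine and glutamate (−0.25). They were 6 and 2 of 10 for asparagine, aspartate, alanine and arginine (0.40), and 5 and 10 of 16 for methionine and transsulfuration (−0.32). For glutathione they were 1 and 3 of 11 (−0.18), and for branched-chain amino acids 6 and 2 of 11 (0.21). With no scaling factors the numbers higher became 4, 1, 0, 2, 1, 1 and 2 in the same order of lists, and the numbers lower 3, 0, 2, 2, 7, 2 and 1. The 3 higher of the proline list were also 1 with upper-quartile factors, without control A or without control B, and the 5 higher of the serine and glycine list were 2 without control A. The 2 lower of the asparagine list became 1 without gliomaspheres A. The 2 lower of the branched-chain list became 1 without control B and 1 without gliomaspheres B, and the 1 higher of the glutathione list became 2 without gliomaspheres B. Among the folate genes Tyms was higher by 2.71 (SE 0.179).

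The transcript of Atf4 itself rose with HER2CA and fell under the 4OH-TAM label. Atf4 stood at 88.0 and 79.5 CPM in controls, 771 and 842 CPM in HER2CA day 15, 345 and 361 CPM under the 4OH-TAM label and 105 and 92.0 CPM in gliomaspheres. The day 15 groups were far above the others, which did not overlap but lay close. The log2 fold changes were 3.27 with HER2CA (SE 0.0917), −1.19 under the 4OH-TAM label (SE 0.0844) and 0.24 in gliomaspheres against controls (SE 0.0879, adjusted p = 0.0265). The last was not past the test with upper-quartile factors (0.20, adjusted p = 0.0587) and was −0.07 with no scaling factors. Of 19 measured ATF4-pathway regulators 13 rose (68.4%) and 3 fell (15.8%) with HER2CA (median 1.38). Of all genes 37.3% were higher and 38.4% lower there. Under the 4OH-TAM label 2 of the regulators were higher and 15 lower (−0.92), beside 40.8% of all genes higher and 39.7% lower. In gliomaspheres against controls 5 of the 19 regulators were higher (26.3%) and 8 lower (42.1%; median −0.14), beside 32.5% and 32% of all genes. The 5 higher became 3 with upper-quartile factors, with no factors once Rn45s and Lars2 were removed or without control B, and 0 with no scaling factors, while the 8 lower were 7 to 9 in every alternative. ATF4 activity is set largely by translation, which these counts do not measure.

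Among the regulators, Atf5 went from 21.0 and 23.0 CPM in controls to 681 and 617 CPM with HER2CA (log2 fold change 4.88, SE 0.133). Trib3, a pseudokinase gene that ATF4 and CHOP induce, went from 2.04 and 1.52 CPM to 174 and 164 CPM (6.56, SE 0.150). Ddit3, which encodes CHOP, rose 7.05-fold and Cebpg, a C/EBP partner of ATF4, rose 4.21-fold. Under the 4OH-TAM label Atf5 (−1.33), Trib3 (−1.43), Ddit3 (−1.32) and Cebpg (−0.40) all fell, Cebpg not past the test with no scaling factors. Cebpb, another partner, did not pass with HER2CA (0.43, SE 0.216, adjusted p = 0.0855) and fell under the 4OH-TAM label (−0.92, SE 0.223). In gliomaspheres Ddit3 was 3.13-fold below controls, at 11.6 and 11.9 CPM against 35.6 and 37.8 CPM, whereas Asns, Chac1 and Mthfd2 were above them.

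The 6 genes whose profile over the 8 libraries was most like the mean profile of the members were Phyhd1, Atf5, Slc7a3, Arhgef2, Akna and Myrf. Their Pearson r ran from 0.989 to 0.997, among 4969 genes with a mean of at least 5 CPM and group means that ranged over at least 1 on the log2 scale. Slc7a3, a cationic amino acid transporter gene, was at 0.499 and 0.741 CPM in controls, 21.0 and 20.5 CPM in HER2CA day 15, 7.97 and 10.6 CPM under the 4OH-TAM label and 1.13 and 0.809 CPM in gliomaspheres. Each member set against the mean of the other 9 had an r from 0.757 in Pycr1 to 0.993 in Mthfd2. These values are descriptions over 8 libraries in 4 groups, and the genes compared share those libraries and their depth.

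Markers of cell types moved between the same groups. The summed level of 10 measured astrocyte markers was 6003 to 7031 CPM in controls, 2638 to 2711 CPM in HER2CA day 15, 11987 to 12456 CPM under the 4OH-TAM label and 11281 to 11762 CPM in gliomaspheres. It was lowest in HER2CA day 15, where the summed enzyme genes were highest. It was highest under the 4OH-TAM label, where the summed enzyme genes were also above controls and gliomaspheres. Gfap, Aqp4 and Slc1a3 made up much of the marker sum there, at means of 3077, 2648 and 3084 CPM. In gliomaspheres against the 4OH-TAM-labelled libraries 4 of the 10 astrocyte markers were higher and 3 lower, beside 31.3% and 29.7% of all genes. The sum of 9 microglia and macrophage markers was 963 to 998 CPM under the 4OH-TAM label and 99.3 to 203 CPM elsewhere. Lyz2 made up much of that sum under the label, at 729 and 713 CPM. Cd68 made up much of it in HER2CA day 15, at 124 and 135 CPM, and was lower under the label (95.3 and 82.3 CPM). The sum of 9 oligodendrocyte-lineage markers was 468 to 506 CPM in controls and 110.0 to 119 CPM in HER2CA day 15. It was 908 to 952 CPM under the 4OH-TAM label and 2995 to 3306 CPM in gliomaspheres. Olig1 (2362 and 2156 CPM) and Olig2 (745 and 637 CPM) made up much of the sum in gliomaspheres. Against controls 7 of the 9 were higher there and 2, Mbp and Cspg4, were lower, beside 32.5% and 32% of all genes. The sum of 9 fibroblast and mural markers was 72.5 to 80.2 CPM in gliomaspheres and 371 to 447 CPM in the other groups. Acta2 made up much of that sum and was at 177 to 210 CPM in controls, 236 to 240.0 CPM in HER2CA day 15 and 52.3 to 64.8 CPM under the 4OH-TAM label. The other 8 of these markers were higher under the label than in HER2CA day 15, among them Col1a1 (19.2 and 19.9 against 83.4 and 65.5 CPM) and Pdgfrb (2.20 and 2.59 against 29.6 and 23.4 CPM). The 5 measured neuronal markers summed to 40.1 to 107 CPM, with Dcx at 0 counts in HER2CA day 15, and the 3 measured endothelial markers to 3.14 to 39.1 CPM. With HER2CA 9 of 10 astrocyte, 8 of 9 oligodendrocyte, 6 of 9 microglia, 5 of 9 fibroblast and mural, 1 of 5 neuronal and 2 of 3 endothelial markers fell, beside 38.4% of all genes. Under the 4OH-TAM label 10, 9, 8, 8, 5 and 3 of them, in that order, were higher than in HER2CA day 15, beside 40.8% of all genes. The part of these shifts in the results on the enzyme genes was not tested.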

How the data were processed

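Stranded libraries of polyA RNA were sequenced, per the labels' protocols. The authors deposited raw counts: whole numbers per gene symbol that sum to a different total in each library. The submitters' processing notes name FastQC, STAR 2.5.3a, featureCounts, mm10 and GRCm38, with no order. Annotation and strand setting: not given in the sources used here. Genes too low for the table were not analysed here.

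Columns were matched to samples by title and groups taken from the labels. Between replicates of a group, chi-square per degree of freedom was 4.05 to 733, so each library counted as 1 replicate. In R 4.3.3, edgeR 4.0.16 was run on all 8 libraries with TMM factors, the 4 groups as its terms and the quasi-likelihood test (13607 genes kept, 4 residual degrees of freedom, biological coefficient of variation 0.0685). P-values of the 6 comparisons were adjusted by Benjamini-Hochberg over all genes and called at 0.05. SE is the absolute log2 fold change over the square root of F. The fit was tested on simulated data.

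The members and the 8 lists of pathway genes were chosen with earlier results of these data known. Named genes are the members, listed isozymes and regulators, up to 2 rises and 2 falls per list among genes past the test whose groups do not overlap and that reach 5 CPM in the higher group (not all are named, and some are not reported here), and the 6 most alike genes, compared on log2(CPM + 0.5). Aspg was named after its values were seen. Symbols were matched to GENCODE M21 (96.4%). Alternatives were other scaling factors (relative log expression, upper quartile, none), no filter, a filter of 5 CPM in at least 2 libraries, DESeq2 1.42.0, a replicate block, a fit of only the 2 groups compared, removal of Rn45s and Lars2, and each library left out. Removing both and using no factors was chosen after seeing the data.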

Additional observations from a re-analysis of the deposited data

How the results depend on the processing

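Of 60 member results under 18 alternatives each (1080 values), 1041 kept their call, 24 were no longer called, 15 were newly called and 0 turned direction with a call. Of the 1041, 6 that were not called had the other sign: 4 of Cth and 1 of Psph in gliomaspheres against controls, and 1 of Cth between the day 15 groups. The counts of members in HER2CA day 15 against controls, in the 4OH-TAM-labelled libraries against controls, and in gliomaspheres against both day 15 groups were 10 of 10 in every alternative. Between the day 15 groups, 1 member was higher as reported. It was 2 with relative log expression or upper-quartile factors, the 5 CPM filter, DESeq2, only the 2 groups compared, no factors without Rn45s and Lars2, or the replicate block, the added gene being Phgdh. It was 0 with no scaling factors (0 also at an unadjusted p under 0.05, edgeR), and leaving out 1 library gave 0 to 2. The 7 lower became 1 with no scaling factors, and 5 to 7 when 1 library was left out. The 6 higher in gliomaspheres against controls became 0 with no scaling factors (3 at an unadjusted p under 0.05, edgeR) and 6 or 7 when 1 library was left out. With no factors but without Rn45s and Lars2 these counts were 5 and 6. The biological coefficient of variation was 0.188 with no factors and 0.0653 once both were also removed.

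Upper-quartile factors moved the median of all genes to 0.22 in the 4OH-TAM-labelled libraries against HER2CA day 15 (6569 higher and 4109 lower, from 5547 and 5400) and to −0.17 in HER2CA day 15 against controls. No factors moved it to 0.13 in the former (4338 and 2037) and −0.33 in gliomaspheres against controls (1386 and 3260, from 4427 and 4353). Replicates share only a letter: differences A minus B correlated between groups at −0.0231 to 0.0987, so the samples are not treated as paired, and the replicate block changed no member call but that of Phgdh. No factors also changed the split of all genes in HER2CA day 15 against controls (2304 and 3586, from 5082 and 5226), in the 4OH-TAM-labelled libraries against controls (2115 and 539, from 4221 and 3840) and in gliomaspheres against them (749 and 3450, from 4255 and 4041; 3350 and 4927 without Rn45s and Lars2). With no factors the falls with HER2CA of Glul (−0.30) and Amt (−0.55) were no longer called. A group with a library left out is 1 library, assumed to vary like the other groups. Low counts limit Cth in controls and gliomaspheres.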
